A study of Mus musculus with 34 samples.

Results

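H3K27ac was compared between the D2-13B6 line and the B6 line of mouse embryonic stem cells, which carry the same B6 chromosome 13 segment in different genetic backgrounds. The members were chosen by line: 3 H3K27ac libraries of D2-13B6 (cell line XE 2-4) and 3 of B6 (cell line 5-1), together 6 of the 34 samples of the series, over every region of a shared list. B6 is C57BL/6J. D2-13B6 is DBA/2J (D2) with the chromosome 13 segment of B6. Of 248336 regions listed, 192158 had enough counts to be tested. Chromosome 11, whose median stood apart from the other autosomes, and chromosome 13, which carries the segment, are described apart from the other 17 autosomes, except that promoters and gene lists are counted over all chromosomes. The series holds H3K27ac and H3K9me3 chromatin immunoprecipitation in stem cells grown with serum, leukemia inhibitory factor, the MEK inhibitor PD0325901 and the GSK3 inhibitor CHIR99021. Its other H3K27ac groups used here are the D2 line (5-5) and B6-13D2 (cell line QJ 6-1, the B6 background with the D2 segment), with 3 libraries each, and 3 separate B6 lines and 3 separate D2 lines made with another antibody. All groups share the culture medium. The labels call the repeated libraries technical replicates, and each genotype is 1 cell line, so every test below compares lines and its p-value measures only the spread between libraries of a line.

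H3K27ac, acetylation of lysine 27 of histone H3, is laid down by the acetyltransferases p300 and CBP and marks active promoters and enhancers. H3K9me3, trimethylation of lysine 9, marks repressed chromatin. In stem cells it is placed by SETDB1 over endogenous retroviruses and over the methylated allele of imprinting control regions, to which TRIM28 is brought by KRAB zinc finger proteins. Such zinc finger genes lie in clusters that vary between mouse strains, and the segment of chromosome 13 studied here lies at one of them.

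Levels are given in the standard unit CPM. Counts were scaled to the library's total over the shared list, multiplied by the library's TMM factor. For H3K27ac these factors ran from 1.042 to 1.169 in B6 and from 0.9025 to 0.9794 in D2-13B6, so the levels already hold this scaling between lines. Differences are log2 values, D2-13B6 minus B6, after TMM scaling, with a standard error and an adjusted p from edgeR's quasi-likelihood test over all tested regions. The libraries held 8761231 to 9414852 counts in B6 and 9637335 to 10221907 in D2-13B6. B6 libraries 1 and 2 differed by less than sampling noise, as did D2-13B6 libraries 2 and 3 (chi-square per degree of freedom 0.9047), and each pair was counted as 1 sample, leaving n = 2 per line. D2-13B6 library 1 stood apart from libraries 2 and 3, with values of 2.806 and 2.791, and results that rest on it are given with and without it. The H3K9me3 libraries of D2-13B6 showed the same pattern (2.455 and 2.467 for library 1, 1.211 between the other two), and the D2 libraries of that mark differed by 1.553. The defining stem cell markers (Pou5f1, Sox2, Nanog, Esrrb, Klf4, Zfp42 and Tfcp2l1) all had a region at their start, that of Esrrb at a mean of only 0.311 CPM, with a summed level of 496.0 to 573.0 CPM in B6 and 694.0 to 734.0 CPM in D2-13B6. The 4 fibroblast markers of 7 that had a region summed to 6.46 to 7.42 CPM in B6, 9.71 in D2-13B6 library 1 and 22.6 and 21.4 in libraries 2 and 3, so library 1 lay nearest to B6. The other 3 (Col3a1, Postn and Lum) had none.

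Among the regions with the largest gain in D2-13B6 were 3 that hold the same stretch of sequence. They are shown because this stretch recurs across the genome and its copies moved together. The run of 51 bases that the 3 share is in capitals. The genome is GRCm38.p6.
chr3:6305226-6305425, plus strand: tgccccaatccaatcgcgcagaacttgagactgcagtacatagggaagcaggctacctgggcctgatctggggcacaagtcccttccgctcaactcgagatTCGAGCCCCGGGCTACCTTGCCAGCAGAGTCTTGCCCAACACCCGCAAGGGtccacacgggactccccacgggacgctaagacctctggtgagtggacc
chr3:91099304-91099503, plus strand: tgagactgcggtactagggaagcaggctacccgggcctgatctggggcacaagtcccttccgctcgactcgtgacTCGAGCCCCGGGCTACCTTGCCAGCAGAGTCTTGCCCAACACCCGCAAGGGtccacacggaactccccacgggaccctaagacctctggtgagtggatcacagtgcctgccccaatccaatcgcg
chr11:13546794-13546993, plus strand: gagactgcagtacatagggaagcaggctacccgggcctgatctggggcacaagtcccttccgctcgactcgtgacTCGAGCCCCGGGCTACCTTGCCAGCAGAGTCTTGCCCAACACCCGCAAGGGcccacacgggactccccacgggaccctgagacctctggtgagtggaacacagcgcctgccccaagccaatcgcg

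These sequences lie in intergenic regions, 2 on chromosome 3 and 1 on chromosome 11. At the first, B6 had 0.387, 0.0952 and 0.219 CPM and D2-13B6 had 13.1, 13.2 and 15.7. At the second the values were 0.774, 0.0952 and 0.109 against 20.2, 17.6 and 18.8, and at the third 0.484, 0.571 and 0.547 against 14.6, 11.9 and 13.0. The libraries of the lines did not overlap at any of them, which was a condition for naming a region. The log2 differences were 5.80 ± 0.34, 5.78 ± 0.29 and 4.59 ± 0.28 (SE), with adjusted p (edgeR) of 3.16e-18, 2.9e-20 and 1.6e-17. The run was noticed after these values were seen, and it was then searched on both strands of every tested region.

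On the 17 autosomes, 852 tested regions held the run, which is 0.516% of those tested. Of these, 696 were higher in D2-13B6 and 17 lower, a share of 81.7% higher against 16.3% of all 165261 regions tested there. Their median difference was 2.32, and with the scaling by level and GC content described below 714 were higher and 15 lower. Among regions that rose 8-fold or more, 236 of 1094 held it (21.6%), against 0 of 804 that fell as far. The chromosome 3 regions shown above are among these and were picked for their gain. Only regions with enough counts to be tested were searched, so copies low in every line were not counted. The median level of the 852 was 0.882 CPM in B6 and 4.36 in D2-13B6. Copies that passed the filter through D2-13B6 alone raise the share higher, and their number was not determined. Summed over the 852 regions, the level was 1033, 1087 and 1098 CPM in the B6 libraries and 5457, 4738 and 4931 in D2-13B6, with no overlap and a ratio of the means of 4.7. The D2 libraries, at 962.1, 960.1 and 965.9 CPM, lay close to B6, and the B6-13D2 libraries were lower still at 373.3, 438.9 and 368.2 CPM. D2-13B6 thus stood above all 3 other lines, while D2, whose background it shares, exceeded B6-13D2 at 426 of the regions and was lower at 5. The difference between these effects was called at 67 of the 852, beside 5.02% of all regions. It contains the D2-13B6 gain by which the run was found. H3K9me3 over the same regions was 11570, 10550 and 10730 CPM in B6 and 4299, 3472 and 3614 in D2-13B6, again without overlap. D2 had 9582 and 7639 CPM of H3K9me3 and B6-13D2 had 11170 and 12220. Of 849 regions tested for that mark, 678 were lower in D2-13B6 (79.9%, against 12.4% of all regions tested for both marks), with a median of -1.44. At the 31 copies that a region of the separate lines overlapped, D2 was lower than B6 at 26 and higher at 3, the opposite direction. Reads from a repeated sequence can be placed at the wrong copy, so the level of a single copy is uncertain. How reads with several matches were placed is not given in the sources used here.

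**Figure D1:**
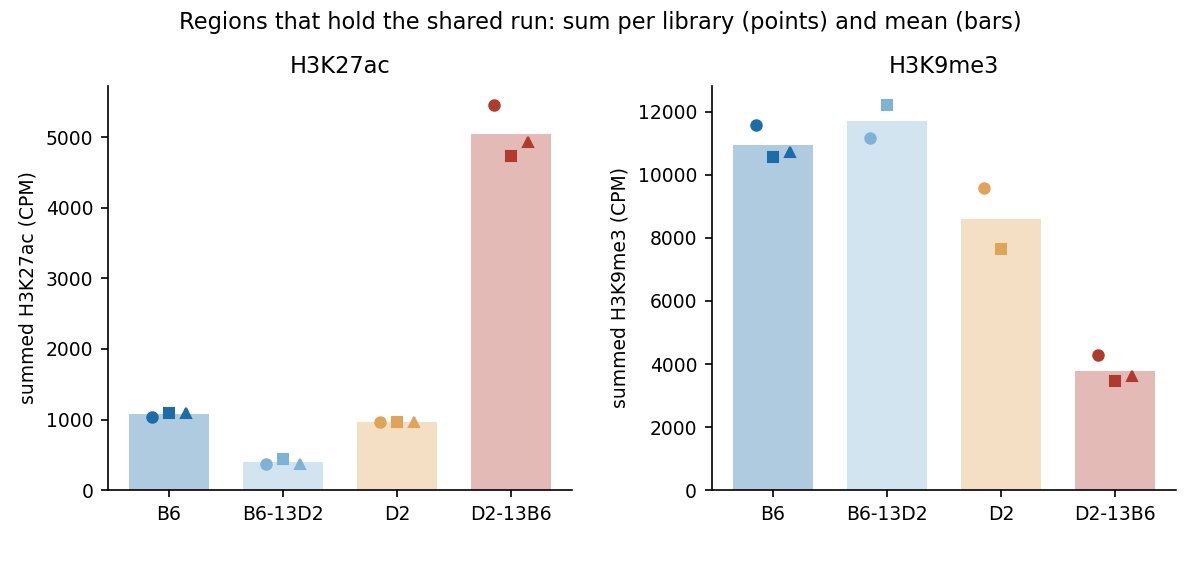
Summed level (CPM) of the 852 regions that hold the shared 51-base run, by library, for H3K27ac and H3K9me3. Each point is a library and each bar the mean of its line. The D2-13B6 libraries are the highest of all lines for H3K27ac (4738 to 5457 CPM) and the lowest for H3K9me3 (3472 to 4299 CPM).

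Across the 17 autosomes the lines differed at 49498 of 165261 regions (30.0%), with 26985 higher in D2-13B6 (16.3%) and 22513 lower (13.6%). Of these, 14082 rose and 15364 fell by 2-fold or more. At 46249 of the called regions the libraries of the lines did not overlap, as at 42.8% of all regions tested. The difference followed the level of a region: in 5 classes of equal size, from the lowest to the highest mean level, its median went from -0.40 through -0.20, -0.09 and 0.06 to 0.28. With a scaling that removes the trend with level and GC content, 23078 regions were higher and 23512 lower, and with library totals in place of TMM 19611 were higher and 32038 lower. Regions within 1 kb of a protein-coding start were higher at 43.6% and lower at 4.66%, which became 2989 and 1287 of 12928 with that scaling. The number of promoters called thus depends on the scaling, and so does the direction at some genes. Without B6 library 3 14748 regions were lower.

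The regions with the largest gains were at or near zero in every B6 library. An intergenic region on chromosome 12 (22056388-22056615, H1 in the plot of the largest differences) had 0.193, 0 and 0.328 CPM in B6 and 11.2, 9.84 and 11.8 in D2-13B6, at least 36.3-fold higher against a floor of 3 counts per library. D2 was at 10.7, 10.8 and 9.72 CPM there and B6-13D2 at 0.281, 0.354 and 0.177, so the level went with the background. A region 24.1 kb from Ust, a chondroitin sulfate 2-O-sulfotransferase (chromosome 10, 8542894-8544071, H7), had 1.06, 0.857 and 0.766 CPM in B6 and 34.1, 41.3 and 41.0 in D2-13B6. The log2 difference was 5.34 ± 0.22 (adjusted p = 2.93e-23, edgeR). A region 45.6 kb from Spp1, which encodes the secreted phosphoprotein osteopontin (chromosome 5, 104388707-104389563, H6), went from 0.677, 0.286 and 0.219 CPM to 16.2, 17.5 and 19.5. In all 3 the groups lay far apart, and a lack of overlap was a condition for naming a region.

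The regions with the largest losses had next to no reads in D2-13B6. At an intergenic region on chromosome 4 (52542805-52543994, L1), B6 had 8.22, 9.52 and 8.98 CPM, and all D2-13B6 and D2 libraries had 0, at least 27.7-fold lower. In an intron of Skint4, a member of a family of immunoglobulin-like genes of the skin and thymus (chromosome 4, 112092129-112093192, L4), B6 had 16.7, 17 and 19.5 CPM and D2-13B6 0, 0.113 and 0, at least 55.2-fold lower. A region 3.0 kb from Wrn, a helicase of DNA repair (chromosome 8, 33229711-33231411, L7), had 45.4, 49.5 and 56.5 CPM against 0.6, 0.452 and 0.217, a difference of -6.92 ± 0.24. H3K9me3 was lower there too, by -1.61, and by -3.79 in the Skint4 intron. In 1509 of the regions called lower every D2-13B6 library had 3 counts or fewer, and in 510 of these every D2 library did as well. Sequence that D2 lacks or that differs from the B6 reference gives fewer placed reads for both marks, and its part in these losses was not tested.

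**Figure D2:**
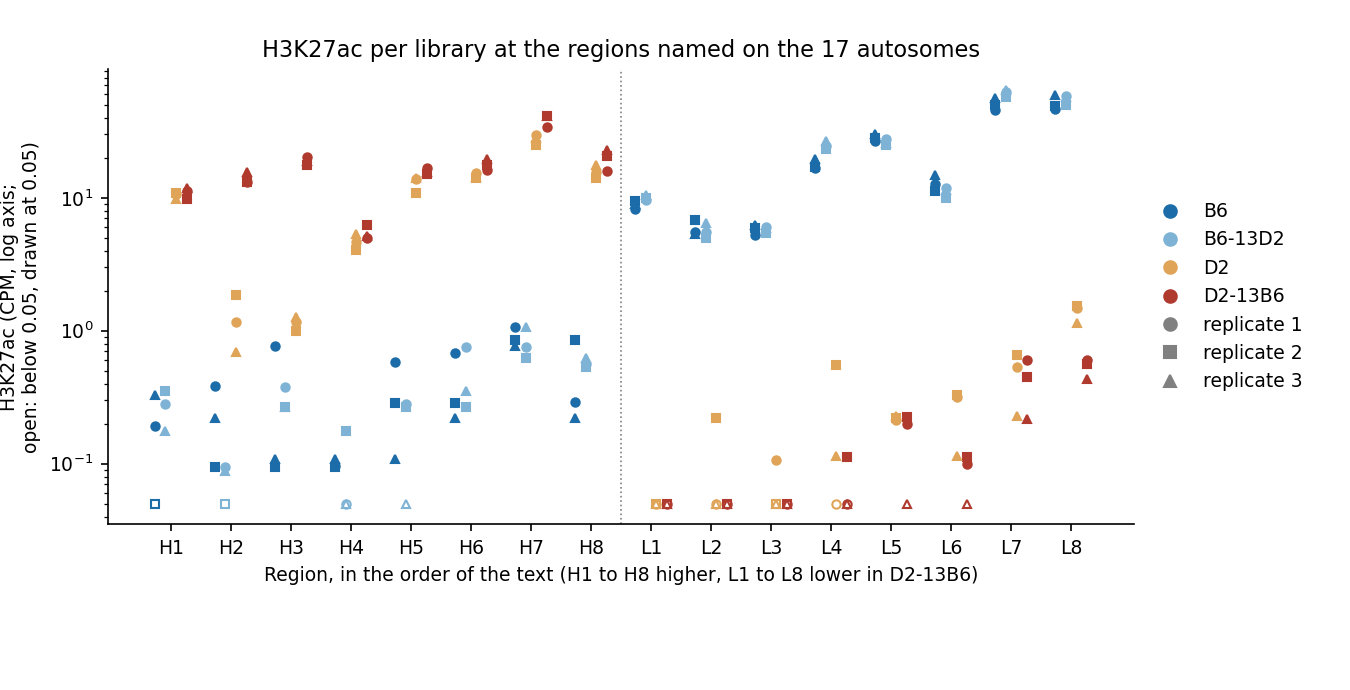
H3K27ac level (log axis, CPM) in each library of the 4 lines at the 8 regions with the largest gain (H1 to H8) and the 8 with the largest loss (L1 to L8) on the 17 autosomes, among those at 5 CPM or more in the higher line and with no overlap, at most 1 per 100 kb. Points are libraries, and open points were below 0.05 CPM. D2 lies with D2-13B6 and B6-13D2 with B6 at most regions, while at H2 and H3, which hold the shared run, D2-13B6 stands above all 3 other lines.

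The differences were also set beside those between the separate B6 and D2 lines, which differed at 49.3% of their own tested regions and at 54.8% of those that overlap a region tested here. Of 1094 regions that rose 8-fold or more, 296 overlapped a region tested in those lines, and 279 of these were called higher in D2 (94.3%). Of 804 that fell as far, 525 overlapped one, and 510 of these were called lower (97.1%). For all regions called higher the share was 53.8% (8.76% opposite) and for those called lower 65.7% (4.17% opposite), against 42.2% in the same direction and 12.6% in the opposite one for all tested regions. The B6 line is 1 of the 3 separate B6 lines, and without it the shares were 48.8% and 62.2%, against 38.3% for all tested regions. D2 against B6-13D2, the same exchange of background with the D2 segment in both lines, shares no library with this comparison. There, 50% of the regions higher and 52.4% of those lower in D2-13B6 were called in the same direction and 2.5% and 0.915% in the opposite one, against 23.1% and 3.16% of all tested regions. A test of the difference between these background effects called 8300 regions (5.02%), among them 3771 of the regions called higher (14%) and 1729 of those called lower (7.68%). The test contains the D2-13B6 minus B6 difference by which those regions were called, so a raised share among them is built in. Over all chromosomes the test called 10176 (5.3%). That count rose to 22495 without D2-13B6 library 1 and fell to 6229 without B6 library 3.

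H3K9me3 was measured in 3 libraries of each of the same lines. At 67232 regions tested for both marks it differed at 13638 (20.3%), higher in D2-13B6 at 5324 (7.92%) and lower at 8314 (12.4%). Where H3K27ac rose 8-fold or more, H3K9me3 was lower at 496 and higher at 204 of 958. Where H3K27ac fell as far, it was lower at 224 and higher at 32 of 417. Among the largest losses of H3K27ac, most regions called for both marks lost both, and among the largest gains most moved in opposite directions. Of the 496 regions with gained H3K27ac and lower H3K9me3, 208 held the shared run (41.9%). Without B6 library 1, the number of H3K9me3 calls over all chromosomes fell from 18190 to 12043, and without D2-13B6 library 1 it was 21122.

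Chromosome 11 carried more H3K27ac in D2-13B6 over most of its length. Of 12935 regions, 3556 were higher (27.5%) and 816 lower (6.31%). The median difference was 0.35 above that of the other autosomes, a fold of 1.27, and in each of 25 windows of 5 Mb the median lay above the autosomal one (0.02 to 0.44 against -0.07). The lowest of these windows, at 110 to 115 Mb, had 40 regions higher and 33 lower of 439. The other 17 autosomes had medians from -0.08 to 0.07 of their common value, and chromosome X lay 0.36 above it. H3K9me3 was also higher on chromosome 11, at 1936 regions against 263 lower of 6178. In the separate lines the chromosome's median lay 0.09 above that of the other autosomes, and in D2 against B6-13D2 0.12 above it. Relative to the mean of the separate B6 lines, the separate D2 lines lay at -0.01, 0.05 and 0.18. Scaling each chromosome on its own brings the median of D2-13B6 minus B6 to -0.04, as it must. The copy number of the chromosome was not measured here. Among regions of chromosome 11 at 5 CPM or more in the higher line and with no overlap, the largest gain lay in an intron of Vps53, a subunit of a tethering complex of the Golgi, and of the overlapping Glod4 (76150857-76151717), with 1.06, 0.952 and 0.766 CPM in B6 against 32.9, 47.8 and 46.4. The largest fitted loss lay 62.3 kb from Nlrp1b, an inflammasome sensor (71293006-71294345), with 11.9, 13.8 and 15.7 CPM against 0.1, 0 and 0, at least 42.9-fold lower. A further loss lay in an intron of 4930554G24Rik (14080184-14081655), with 29.9, 33.6 and 35.8 CPM against 0, 0.339 and 0, at least 103-fold lower.

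**Figure D3:**
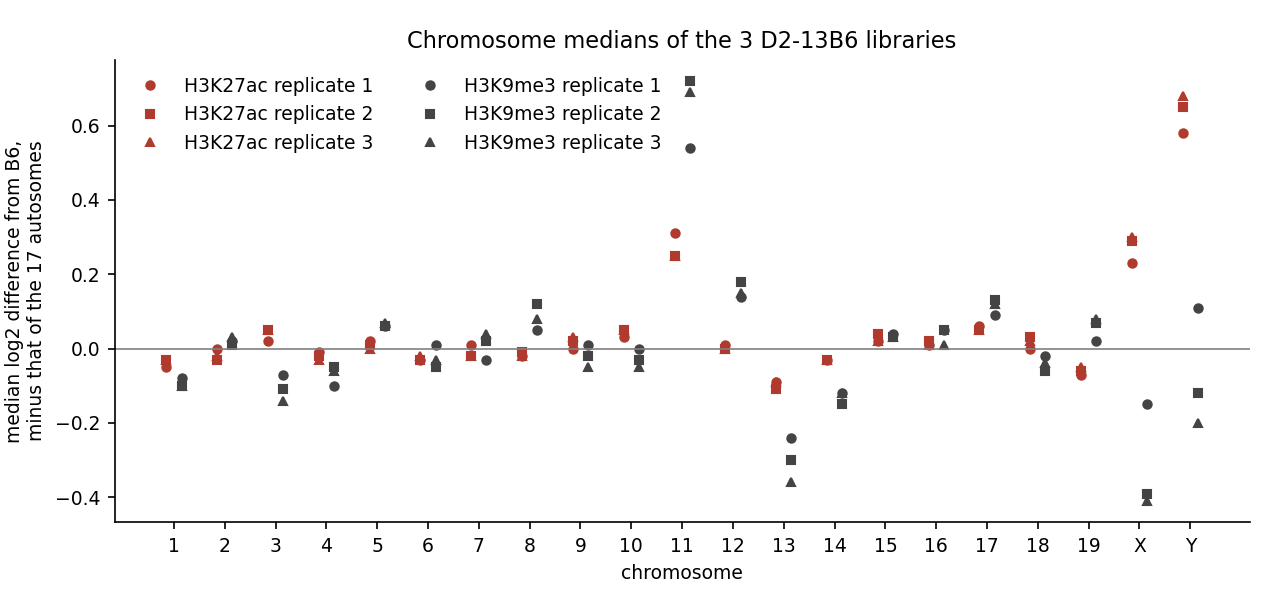
Median log2 difference from B6 of each D2-13B6 library per chromosome, minus that of the 17 autosomes, for H3K27ac (red) and H3K9me3 (grey). On chromosome 11 all libraries of both marks lie above the other autosomes (0.25 to 0.31 and 0.54 to 0.72), and on chromosome 13 all lie below 0.

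On chromosome 13, 1194 of 9394 regions were higher (12.7%) and 1470 lower (15.6%), and the median lay 0.13 below that of the other autosomes. Outside 60 to 70 Mb it was also below them, by 0.15, and H3K9me3 was 0.32 lower there over 3159 regions. Between 65 and 67 Mb the shared B6 segment was apparent. There the separate D2 lines exceeded the B6 lines by a median of 1.70 at 65 to 66 Mb and 1.44 at 66 to 67 Mb. In the repeated libraries the median level at 65 to 66 Mb was 2.49 CPM in B6 and 2.17 in D2-13B6, against 83.1 in D2 and 96.4 in B6-13D2. At 66 to 67 Mb it was 4.18 and 5.67 CPM against 106.0 and 116.0. Both lines with the B6 segment were low and both with the D2 segment were high. At regions where the separate lines differ, the slope of this comparison on the strain difference was 0.06 over 65 to 70 Mb, against a median of 0.78 (0.14 to 1.46) in 447 windows outside chromosomes 11, 13, X and Y. It ranked 2 of 523 windows, above one on chromosome X at 15 to 20 Mb (-0.01). The median difference was -0.27 at 65 to 66 Mb, with 5 of 161 regions higher and 28 lower, but 0.24 at 66 to 67 Mb, with 58 of 183 higher and 11 lower. At 66 to 67 Mb the difference between the background effects was called at 52 of the 183 regions, beside 5.1% on the whole chromosome, and 51 of these were more positive in D2-13B6 against B6.

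A short stretch beyond the low part differed again. From 68 to 68.4 Mb, 26 of 33 regions were higher in D2-13B6, while 5 of 8 and 4 of 7 were lower at 68.5 to 68.6 and 68.6 to 68.7 Mb. Over 68 to 69 Mb H3K9me3 was called at 33 of 45 regions with a median of 1.67. The median H3K27ac level there was 0.737 CPM in B6 and 1.63 in D2-13B6, and it was 3.63 in D2 and 3.95 in B6-13D2. The sources name different end markers for the segment of D2-13B6, so whether this stretch lies inside it is not settled here. Outside the segment, a region 16 kb from the histone gene Hist1h4h (23513243-23515086) had 52.7, 55.9 and 62.1 CPM in B6 against 0.4, 0.452 and 0.108 in D2-13B6, a difference of -7.49 ± 0.25. A region 53.8 kb from Arhgef28, a guanine nucleotide exchange factor (97844614-97845671), went the other way, from 0.774, 0.857 and 0.328 CPM to 33.8, 37.8 and 35.9. The groups did not overlap at either, which was a condition for naming them.

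Of 15712 tested protein-coding promoters, 7664 were higher in D2-13B6 (48.8%) and 576 lower (3.67%). The share higher was 71.2% on chromosome 11, 32.4% on chromosome 13 and 46.9% on the other autosomes. With level- and GC-dependent scaling these were 4167 (26.5%) and 1418 (9.02%), and without B6 library 3 the number lower was 346 under TMM. Of autosomal promoters off chromosomes 11 and 13 that reached 5 CPM in the higher line and did not overlap, the largest gain was at Adam23, a cell surface protein of the ADAM family without protease activity, with 3.29, 2.38 and 2.41 CPM in B6 and 30.3, 29.7 and 30.8 in D2-13B6 (3.45 ± 0.18, adjusted p = 5.97e-20, edgeR). Pdrg1, named for its regulation by p53 and DNA damage, went from 7.64, 8.57 and 9.64 CPM to 77.0, 89.0 and 91.3. Plekhm3, a pleckstrin homology domain protein, had 16.1, 18.1 and 17.7 CPM against 128.0, 157.0 and 157.0, with H3K9me3 lower by -2.40. No library of one line overlapped the other at these promoters. D2 and B6-13D2 differed in the same direction, by 3.22 at Adam23, 3.69 at Pdrg1 and 2.61 at Plekhm3. Hunk, Spint5, Lrfn3, St6galnac6, Art3 and the region shared by H60b and Raet1e, which encode ligands of the NKG2D receptor, rose by 2.68 to 3.37.

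The largest promoter losses were at Trim12a, a member of the TRIM5 family of antiviral factors, and Mme, the membrane endopeptidase neprilysin, both with -3.83. Trim12a had 32.6, 34.3 and 37.9 CPM in B6 against 2.9, 1.92 and 2.71 in D2-13B6, and D2 was as low. Mme had 18.4, 19.6 and 26.8 CPM against 1.8, 1.13 and 1.84, and its H3K9me3 was lower too, by -2.53. Ppp1r14d, an inhibitor of protein phosphatase 1, fell by 2.82 and had H3K9me3 higher by 2.63. Its H3K9me3 counts were 3, 1 and 1 in B6 and 3, 12 and 17 in D2-13B6, so library 1 did not show the rise. At Gm37596, B6 stood alone with 41.4, 42.4 and 49.2 CPM against 4.7, 4.64 and 2.93 in D2-13B6, while B6-13D2 had 8.91, 9.73 and 11.5. Trim12a, Gm14412 and H60b belong to families with close copies, between which reads can be split.

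At imprinted genes, which are read from only the maternal or the paternal copy, H3K9me3 was lower in D2-13B6 at some of the regions within 1 kb of a start. Of 26 such regions tested, 11 were lower, with differences of -1.0 to -2.13 and no overlap between the lines, against 2.43% of all promoters lower. They lie at Airn, Kcnq1ot1, Mcts2, Nap1l5, Nespas, Nnat, Peg13, Peg3 with Usp29, Plagl1, Zim1 and Zrsr1. H3K27ac was higher at 8 of the 11, by 1.07 to 1.89, and not called at Mcts2, Nnat and Zim1. With DESeq2 the H3K27ac call of Nap1l5 was lost (adjusted p = 0.0816). Over all 32 imprinted genes tested, H3K27ac was higher at 19 and lower at 1 (Igf2), or 15 and 1 with level- and GC-dependent scaling. Igf2 had at most 1.24 CPM in any library. Of the 6 fits that left out 1 library, only that without D2-13B6 library 1 called it lower; without B6 library 3 it missed the threshold (adjusted p = 0.0684, edgeR), and in the other 4 it was not tested. With scaling by level alone the call was lost as well (adjusted p = 0.187). The shares higher were 59.4% beside 48.8% of all promoters and, with that scaling, 46.9% beside 26.5%. H3K27ac was also higher at 6 of the 15 other regions tested for H3K9me3.

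Kcnq1ot1, the long non-coding RNA that silences its neighbours on the paternal chromosome 7, had 15.7, 16.8 and 17.1 CPM of H3K27ac at its start in B6 and 48.6, 46.9 and 47.5 in D2-13B6 (1.49 ± 0.14, adjusted p = 4.73e-12, edgeR). Its H3K9me3 was 23.3, 23.4 and 26.4 CPM in B6 and 8.89, 8.72 and 9.46 in D2-13B6 (-1.25 ± 0.25, adjusted p = 3.72e-05). Peg13, a non-coding RNA, had 3.77, 3.52 and 3.83 CPM of H3K27ac against 14.9, 14.4 and 13, and 28, 29.4 and 26.4 CPM of H3K9me3 against 4.44, 11 and 6.88. At both, D2 resembled D2-13B6 and B6-13D2 resembled B6. Peg3, a zinc finger protein expressed from the paternal copy, had 53.4, 50.6 and 36.4 CPM of H3K9me3 in B6 against 14, 9.63 and 16.3 in D2-13B6, and 11.3 and 11.8 in D2 against 34.5 and 39.3 in B6-13D2. In D2 against B6-13D2, 4 of the 11 regions were lower in H3K9me3 (Airn, Kcnq1ot1, Peg13 and Peg3), and the difference between the background effects did not pass the test at any of the 11 (lowest adjusted p = 0.468 at Mcts2, edgeR), which does not show that the effects were alike. Mcts2 went another way: its H3K9me3 was 17.4, 18.5 and 11.1 CPM in B6, and 1.27 to 3.89 CPM in each library of the other 3 lines.

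**Figure D4:**
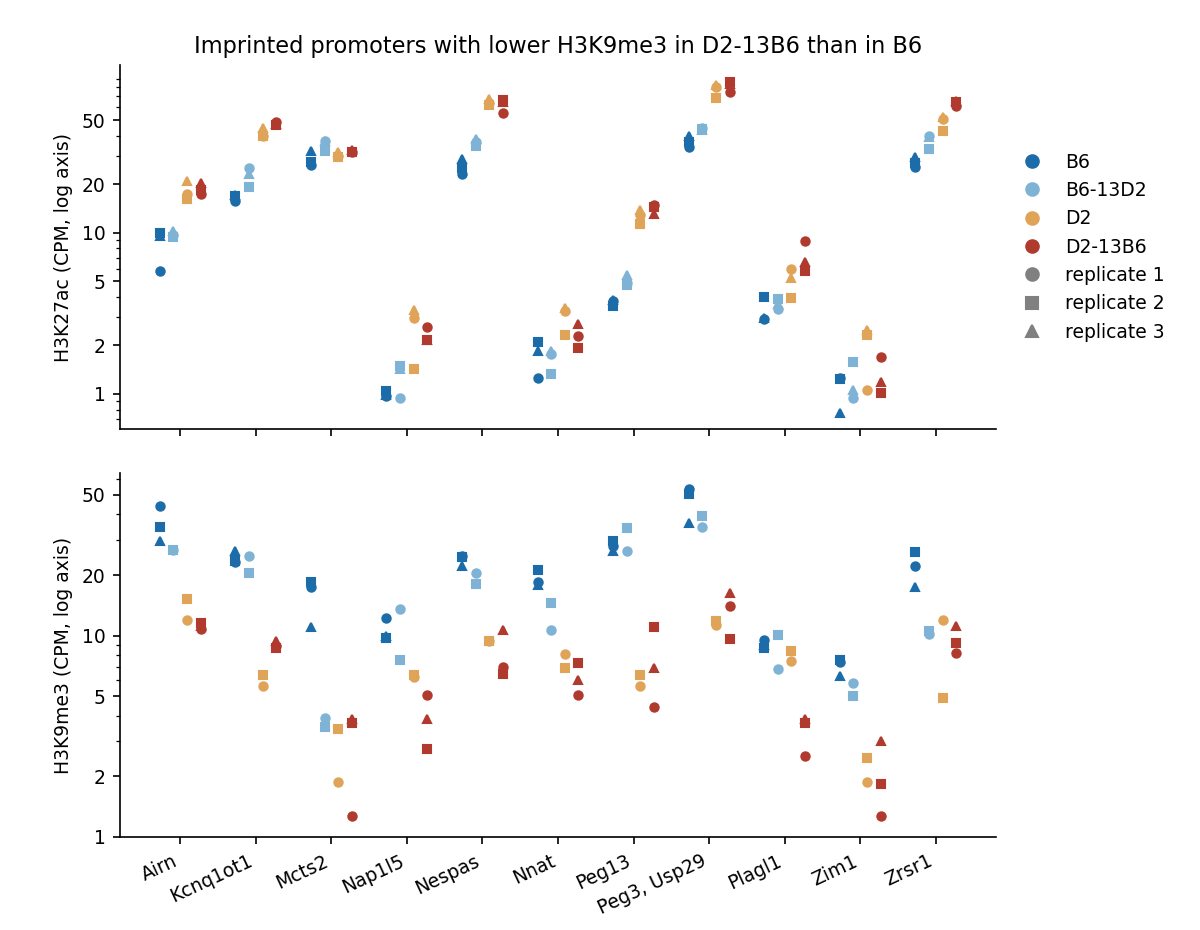
H3K27ac and H3K9me3 levels (CPM) in each library at the regions of imprinted genes with lower H3K9me3 in D2-13B6. At Kcnq1ot1 and Peg13 the D2 and D2-13B6 libraries lie together, low in H3K9me3 and high in H3K27ac, and at Mcts2 the B6 libraries stand above all others in H3K9me3.

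The letters TGCCGC are the core that the imprinting factor ZFP57 binds when methylated. They were searched on both strands in the 250 bases before each RefSeq start. They were found in 4 of 10 promoters of these genes with a sequence (Mcts2, Nap1l5, Plagl1 and Zim1), in 2 of 29 of the other imprinted genes and in 2850 of 32851 promoters of all genes (8.68%). The Plagl1 start with the match lies outside its region. The other 3 are shown with the match, or GCGGCA where it is on the opposite strand, in capitals (RefSeq, GRCm38.p6).
Mcts2, chr2:152686898-152687147, plus strand: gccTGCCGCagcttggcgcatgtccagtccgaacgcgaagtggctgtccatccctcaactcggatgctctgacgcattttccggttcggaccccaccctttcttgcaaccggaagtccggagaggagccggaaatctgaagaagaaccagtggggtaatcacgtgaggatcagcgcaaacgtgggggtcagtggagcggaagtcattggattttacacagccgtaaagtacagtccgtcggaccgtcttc
Nap1l5, chr6:58907127-58907376, minus strand: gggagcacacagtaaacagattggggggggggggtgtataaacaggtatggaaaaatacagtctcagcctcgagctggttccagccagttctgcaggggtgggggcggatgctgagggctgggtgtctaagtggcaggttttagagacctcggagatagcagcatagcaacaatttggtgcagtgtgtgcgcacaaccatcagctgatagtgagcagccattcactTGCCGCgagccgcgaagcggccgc
Zim1, chr7:6696433-6696682, minus strand: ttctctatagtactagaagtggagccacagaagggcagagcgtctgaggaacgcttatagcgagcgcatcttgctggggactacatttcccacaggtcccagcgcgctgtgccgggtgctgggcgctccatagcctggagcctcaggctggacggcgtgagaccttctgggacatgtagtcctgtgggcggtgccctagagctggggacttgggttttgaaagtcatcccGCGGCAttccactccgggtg
A match is a description of the letters and not of binding. Mcts2, a gene copied by retroposition into an intron of H13, differed by -2.13 ± 0.34 in H3K9me3. Nap1l5, a nucleosome assembly protein gene, differed by -1.31 ± 0.35, and Zim1, a zinc finger gene beside Peg3, by -1.54 ± 0.45.

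The remaining gene lists cover the pathways of the culture medium, stem cell identity, other cell types and chromatin. Over 18 lists, 274 genes had a tested promoter, 130 were higher and 19 lower, and with level- and GC-dependent scaling 71 and 41. Over all promoters 48.8% were higher and 3.67% lower, and 26.5% and 9.02% with that scaling, so the number of list genes higher is close to the background under both. Without B6 library 3 the number lower was 10. Targets of the MEK-ERK pathway, which PD0325901 blocks, were higher at 11 of 12 promoters (91.7%, beside 48.8% of all promoters), and at 8 (66.7%, beside 26.5%) with 1 lower under the other scaling. Spry4, a feedback inhibitor of the pathway, had 12, 13.4 and 10.6 CPM in B6 and 34.3, 32.9 and 35.3 in D2-13B6 (1.49 ± 0.14). Dusp6, a phosphatase that inactivates ERK, rose by 1.10 ± 0.13, from 35.1, 37.6 and 37.7 CPM to 77.0, 82.7 and 88.3. Spry2 differed by -0.23 (adjusted p = 0.204, edgeR) and was called lower, by -0.57, with the other scaling.

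Targets of Wnt signalling, which CHIR99021 activates by blocking GSK3, were higher at 7 of 12 (58.3%) and lower at 1 under TMM, beside 48.8% and 3.67% of all promoters, and 6 and 1 under the other scaling. Of the 7, Axin2, Tcf7 and Znrf3 lie on chromosome 11. Lef1, a transcription factor of the pathway, had 4.45, 5.14 and 3.28 CPM against 27.8, 18.1 and 19.3 (2.39 ± 0.19). Sp5, a repressor among its targets, had 9.86, 10.6 and 9.96 CPM against 32.6, 31.4 and 36.0 (1.68 ± 0.15), while Cdx1, a homeobox gene, fell by 0.87. In D2 against B6-13D2, Sp5 differed by 0.29, and the difference between the effects was 1.39 and passed the test. LIF and STAT3 targets were higher at 8 of 12 (66.7%) and lower at 1 (8.33%). With the other scaling 4 were higher and 4 lower (33.3% each, beside 26.5% and 9.02% of all promoters). Of the 8, Socs3 and Stat3 lie on chromosome 11 and Il6st on chromosome 13. Socs3, the feedback inhibitor of STAT3 signalling, rose by 1.4 ± 0.14, from 10.3, 12.9 and 12.9 CPM to 34.1, 28.7 and 35.2.

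Naive pluripotency genes were higher at 10 of 18 promoters under TMM (55.6%, near the 48.8% of all promoters). With the other scaling 2 were higher and 2 lower (11.1% each, beside 26.5% and 9.02% of all promoters). Klf4 rose by 0.61 ± 0.13 and Nanog by 0.38 ± 0.12, and with the other scaling they differed by 0.13 and 0.09 without passing the test. Klf2, at -0.04, and Tfcp2l1, at -0.01, were called lower with it. Core pluripotency genes were higher at 8 of 10, beside 48.8% of all promoters. With the other scaling 4 of the 10 were higher and 2 lower, beside 26.5% and 9.02% of all promoters. Sox2 rose by 0.70 ± 0.12 from 68, 72.4 and 76.6 CPM to 122.0, 124.0 and 120.0. Formative genes were higher at 7 of 13 (53.8%, near the 48.8% of all promoters). With the other scaling 6 were higher and 1 lower (46.2% and 7.69%, beside 26.5% and 9.02%). Among them Cdh2, N-cadherin, rose by 2.31 ± 0.17, from 4.74, 5.33 and 3.94 CPM to 23.1, 21.6 and 26.7.

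**Figure D5:**
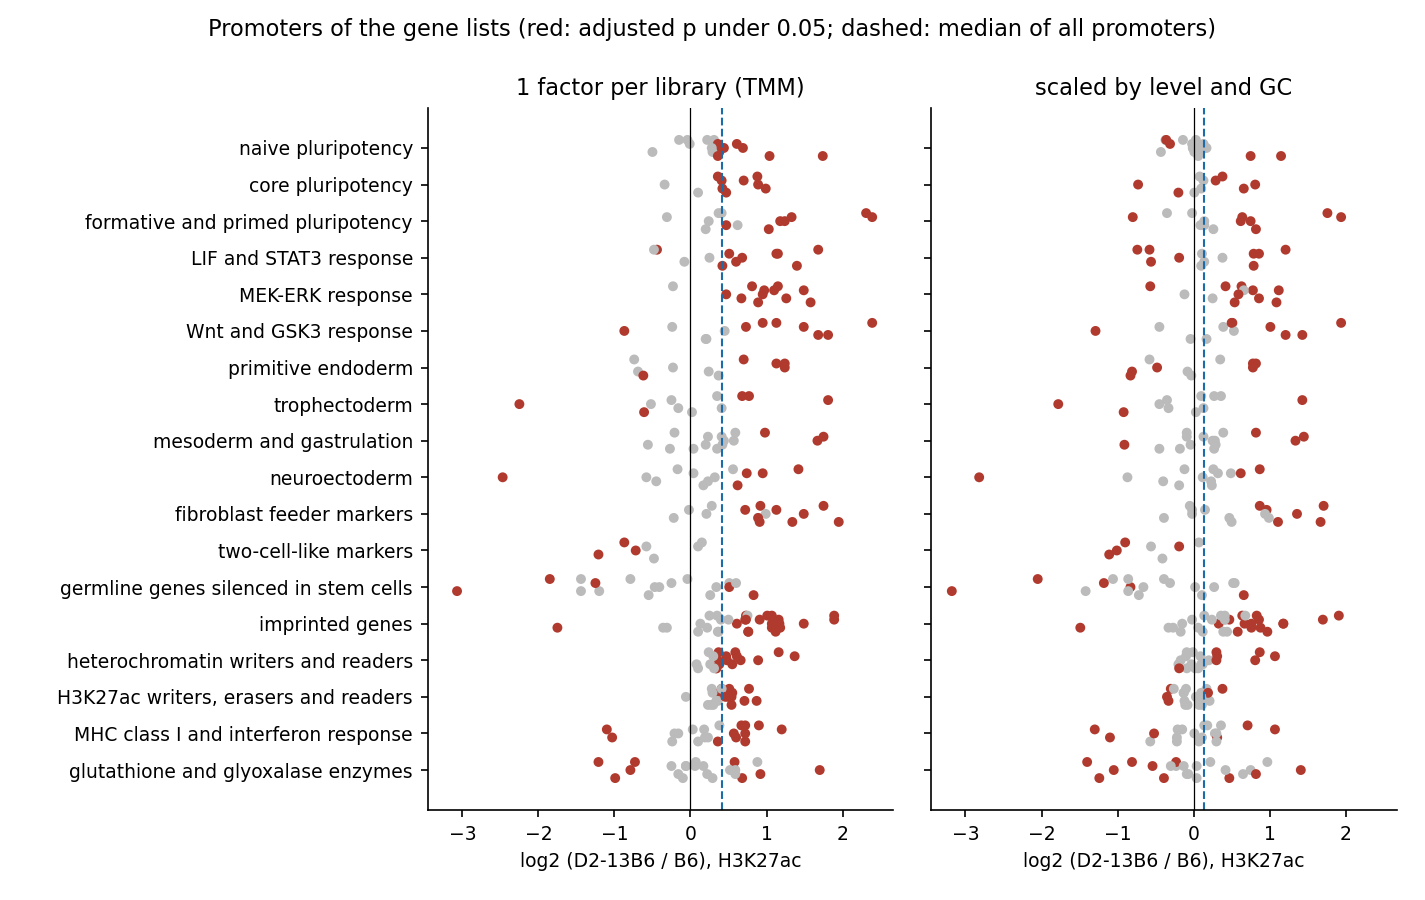
Log2 difference in H3K27ac, D2-13B6 minus B6, at the promoters of each gene list, with 1 factor per library (left) and scaled by level and GC content (right). Points are genes, red where called, and the dashed line is the median of all promoters. On the left the MEK-ERK list has 11 of 12 promoters higher, and most lists move toward 0 on the right.

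Markers of fibroblasts, the usual feeder cells of stem cell culture, were higher at 9 of 15 promoters, beside 48.8% of all promoters. With the other scaling 6 of the 15 were higher, beside 26.5% of all promoters. Of the 4 defining markers with a region, 2 were called higher. The defining markers that summed to 6.46 to 7.42 CPM in B6 were also above B6 in D2, at 16.2 to 22.6, and in B6-13D2, at 13.0 to 15.3. With D2-13B6 library 1 as the only library of its line, the differences at Acta2 and Col1a2 were 0.41 and 0.58. With all libraries they were 1.75 and 1.49. Col1a2, a collagen chain, had 2.51, 2.67 and 2.08 CPM in B6 and 3.7, 10.1 and 8.78 in D2-13B6. Acta2, smooth muscle actin, had 1.64, 0.857 and 1.75 CPM against 1.9, 6.44 and 7.59, so library 1 lay close to the B6 values and libraries 2 and 3 above them. The call of Acta2 was lost with DESeq2 (adjusted p = 0.0662). Vim, an intermediate filament of fibroblasts and stem cells, had 59.6, 76.9 and 76.9 CPM in D2-13B6 against 14.1, 16.7 and 20. In bulk libraries more cells of a type and more of the mark per cell cannot be told apart. Among genes of other lineages, mesoderm and gastrulation genes were higher at 3 of 15, with the Nodal antagonists Lefty1 at 1.75 ± 0.16 and Lefty2 at 1.67 ± 0.14. Primitive endoderm genes were higher at 4 of 10 with Sparc lower (3 and 3 with the other scaling), trophectoderm at 3 of 11 with Krt7 and Tead4 lower (1 and 2), and neuroectoderm at 4 of 13 with Olig2 lower (2 and 1). The shares higher lie below the 48.8% of all promoters under TMM, on counts of 3 or 4 genes each, but with the other scaling primitive endoderm, at 30.0%, lies above the 26.5% of all promoters. Without B6 library 3 the neuroectoderm genes higher were 2, and the calls of Sparc, Krt7 and Tead4 were lost (adjusted p = 0.0852 for Krt7, edgeR). Olig2, a neural transcription factor, had 9.96, 11.2 and 11.1 CPM against 1.8, 2.04 and 2.17 (-2.47 ± 0.21), with D2 at 1.91 to 2.17. Cdx2, the trophectoderm regulator, had 3.58, 5.43 and 4.05 CPM against 16.1, 13.1 and 17.5 (1.81 ± 0.18).

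Promoters of germline genes that stem cells keep silent and of markers of the 2-cell-like state were mostly not called or lower. Of 18 germline promoters 2 were higher and 3 lower, beside 48.8% and 3.67% of all promoters, and without D2-13B6 library 1 4 were higher and 4 lower. Sycp3, a protein of the synaptonemal complex, had 3.67, 3.43 and 3.61 CPM in B6 and 0.6, 0.339 and 0.325 in D2-13B6 (-3.07 ± 0.37). Mael, a factor of transposon silencing in germ cells, differed by -1.85 ± 0.36 and Stra8, an inducer of meiosis, by -1.25 ± 0.34 (adjusted p = 0.0906 with DESeq2, where its call was lost). Of 7 markers of the 2-cell-like state 3 were lower (Sp110, Usp17la and Zscan4d), which is 42.9% beside 3.67% of all promoters. With the other scaling 4 were lower (57.1%, beside 9.02%). Without B6 library 3 the calls of Stra8 and Usp17la were lost (adjusted p = 0.0513 and 0.0687, edgeR), and 1 of the 7 markers was lower. With DESeq2 the list had 0 lower calls, against 3 with edgeR. Zscan4d, a member of a multicopy family, had 4.84, 3.24 and 4.93 CPM against 2.3, 1.92 and 3.14 (-0.87 ± 0.25). The groups lay close but did not overlap, and its copies can share reads.

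Chromatin and metabolic genes completed the lists. Writers and readers of heterochromatin were higher at 14 of 20, beside 48.8% of all promoters. With the other scaling 6 were higher and 1 lower, beside 26.5% and 9.02% of all promoters. Among them Suv39h2, an H3K9 methyltransferase, rose by 1.37 ± 0.15 and Ehmt1 by 1.16 ± 0.15. Genes that write, erase or read H3K27ac were higher at 12 of 21 under TMM (57.1%, near the 48.8% of all promoters), but 2 were higher (9.52%, beside 26.5%) and 3 lower with the other scaling. Antigen presentation and interferon genes were higher at 9 (45.0%, near the 48.8% of all promoters) and lower at 2 of 20 (Irf7 and Psmb8), and 3 and 3 with the other scaling. Without B6 library 3 the number higher was 5. The call of Psmb8 was lost with DESeq2 (adjusted p = 0.17), without B6 library 2 (adjusted p = 0.0576, edgeR) and without D2-13B6 library 3 (0.0789). Of 22 glutathione and glyoxalase genes 4 were higher and 4 lower (Gstm2, Gsto1, Gsto2 and Gstp2). That is 18.2% each, beside 48.8% higher and 3.67% lower of all promoters. With the other scaling 3 were higher and 7 lower (13.6% and 31.8%, beside 26.5% and 9.02%). Glo1, glyoxalase 1, rose by 1.70 ± 0.13 from 20.6, 23.1 and 25.7 CPM to 74.6, 82.3 and 82.5, and its H3K9me3 was higher by 1.36. D2 also exceeded B6-13D2 at Glo1, by 1.08, and the separate D2 lines exceeded the B6 lines by 0.90.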

How the data were processed

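Per the labels' protocols, chromatin was cut with micrococcal nuclease and immunoprecipitated, and libraries gave 75-base reads. The repeated H3K27ac libraries used another antibody than the separate lines. The submitters' processing notes name Trimmomatic 0.39, HISAT2 2.2.1, MACS 1.4.2, bedtools 2.9.2 and edgeR with the mm10 build. The deposited files hold whole counts of reads per region, which the authors did not normalize. They include 2 H3K9me3 columns that matched no sample and were not used.

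Regions kept by filterByExpr were tested with edgeR 4.0.16 (TMM, quasi-likelihood test, Benjamini-Hochberg, adjusted p under 0.05) in 1 fit of the 4 lines. Pairs of libraries of a line that differed by less than sampling noise over regions with at least 40 counts were summed. Locations come from GENCODE M21 and promoter sequences from RefSeq GRCm38.p6. A promoter is the region with the highest level within 1 kb of a start. The members, gene lists and tests were chosen with earlier results of these data known, and the scaling by level (loess) and by level with GC content was chosen after seeing the data. Named regions are the 8 largest differences in each direction on the 17 autosomes, 3 each on chromosomes 11 and 13 and 10 promoters each, at 5 CPM or more in the higher line with no overlap and, except promoters, at most 1 per 100 kb, list members that differ 2-fold or more, and Y-linked and Xist checks. Other genes are named as examples of their lists. On simulated counts of 178753 regions for D2-13B6 against B6, 8% of 1.5-fold, 50% of 2-fold, 94% of 4-fold and 98% of 8-fold changes were recovered. The simulation changed 50 regions per fold, none at the lowest counts, with the same spread for all regions. In the data 30.3% of all regions were called, so these rates may not hold there.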

Additional observations from a re-analysis of the deposited data

Results flagged for a closer look

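A test of the difference between the background effects, D2-13B6 minus B6 against D2 minus B6-13D2, called 8300 regions on the 17 autosomes and 52 on chromosome 13 between 66 and 67 Mb. Positive values below mean a larger log2 difference for D2-13B6 minus B6. That difference is a term of the test, and most named regions were picked by its size, which favours their passing. Among the named regions the difference between the effects was positive at 2 of the 3 that hold the shared run. The values were 3.91 on chromosome 3 and 2.95 on chromosome 11. It did not pass at the other region on chromosome 3 (1.59, adjusted p = 0.589, edgeR). It was also positive at the promoters of H60b and Raet1e (1.08), Axin2 (0.75), Cdx2 (1.37), Col1a2 (1.18), Dusp6 (0.63), Glo1 (0.62), Il6st (1.12), Lefty1 (0.79), Myc (0.73), Nr0b1 (1.12), Sp5 (1.39), Vim (0.87), Zic2 (0.81) and Zrsr1 (0.79).

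It was negative at St6galnac6 (-1.38), Gm37596 (-2.15), Klhdc7a (-1.33), the region of Gm49510 and Sh3bp1 (-1.03), Mael (-2.19), Psmb8 (-1.57) and Usp17la (-2.10). At St6galnac6 D2 had 32.0, 27.6 and 33.5 CPM and D2-13B6 17.8, 16.6 and 16.5, both far above the 0.884 to 1.84 CPM of the other lines. At Il6st, a receptor subunit of LIF signalling, B6 had 27.7, 32.4 and 35.6 CPM and the 3 other lines 56.1 to 74.7 CPM. Col1a2 is a fibroblast marker whose level in D2-13B6 differed between library 1 and libraries 2 and 3, and the part of that in its value was not tested.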

How the results depend on the processing

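Under DESeq2 49498 autosomal calls became 26862 (17178 higher, 9684 lower), those on chromosomes 11, 13 and X with Y 2795, 1300 and 989, D2 minus B6-13D2 28028, the interaction 5414, H3K9me3 6540, and lower promoters 305 (lists 10). With a mean of at least 50 counts they were 26049 (12299 and 13750), 2535, 1372, 763 and 31971, with 996 lower promoters. Leaving out 1 library gave 37031 to 56525 autosomal calls, 14748 to 23657 lower, 6229 to 22495 interaction calls, 12043 to 21122 for H3K9me3, 346 to 647 lower promoters, 10 to 21 lower and 115 to 144 higher list members, a chromosome 13 median of -0.14 to -0.11 and a slope of 0 to 0.11. Level scaling, level and GC scaling, and library totals gave 1184, 1418 and 1084 lower promoters and 33, 41 and 34 lower list members. With GC scaling 4167 promoters and 71 list members were higher. All libraries as samples gave 889 lower promoters, 21132 interaction calls and -0.12 for chromosome 13. A test against a 1.2-fold change gave 6634 interaction calls. Scaling by chromosome gave -0.04 and 0.01 for the medians of chromosomes 11 and 13, and -0.57 for Uty. The median of chromosome 11 was 0.31 with the count minimum and 0.42 with D2-13B6 library 1 alone, and that of chromosome 13 was -0.10 with DESeq2 and with the minimum. The slope at 65 to 70 Mb was -0.08 with level or GC scaling or the minimum, and -0.11 and 0.19 in windows of 2 Mb. The cause of these changes was not tested. Replicate numbers share no source in the labels, and deviations of same-numbered libraries correlated at -0.0200 to 0.0130 for H3K27ac and at 0.0018 to 0.025 for H3K9me3. The replicate block was fitted with all libraries as samples, where it moved the autosomal calls from 57095 to 56529, the lower promoters from 889 to 886 and the interaction calls from 21132 to 20667.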

Other observations

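In regions more than 1 kb from a start on the 19 autosomes, 5 motifs were counted in the middle 200 bases on both strands, as a description. The AP-1 motif TGACTCA was in 11.5% of regions 2-fold or more higher in D2-13B6, in 4.59% of those lower and in 8.17% of all tested. Among the regions that the separate lines called in the same direction, the shares were 5.96% and 4.77%. The AAGGTCA half-site of orphan nuclear receptors such as Esrrb was in 4.69% of the higher, 8.24% of the lower and 6.23% of all regions, and the Klf motif GGGTGTGG in 2.83%, 5.83% and 4.72%. The octamer ATGCAAAT was in 1.98%, 2.65% and 2.38%, and TGCCGC in 3.53%, 3.18% and 3.57%. The fibroblast markers were higher in D2-13B6 libraries 2 and 3, and their part in these shares was not tested.

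Called regions were unevenly spread over the genome. On chromosome 12, 69.3% of regions between 20 and 25 Mb were called (276 higher, 58 lower) and 58.2% between 15 and 20 Mb (221 higher, 73 lower), against a median of 29.2% in windows of 5 Mb. On chromosome 4, 50.4% were called between 145 and 150 Mb, with 89 higher and 323 lower. On chromosome 19, 53.2% were called between 60 and 65 Mb, with 13 higher and 54 lower. Chromosome X had 1281 higher (28.9%) and 322 lower (7.27%) of 4427 regions, and chromosome Y 71 (50.4%) and 12 (8.51%) of 141, beside 16.3% and 13.6% on the 17 autosomes. The median of chromosome X lay 0.36 above that of these autosomes, as far as that of chromosome 11 (0.35), while its H3K9me3 median differed from theirs by -0.34. Both lines had H3K27ac at Y-linked promoters: Uty had 21.3, 23.4 and 30.8 CPM in B6 and 27.1, 34.7 and 35.2 in D2-13B6, and Eif2s3y 6.38, 6.0 and 7.12 against 10.5, 13.2 and 12.8.

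A second pair of named regions, on chromosomes 11 and 12 and among the largest losses, shares a run of 25 bases. Of 341 tested regions on the 17 autosomes that hold it, 95 were lower (27.9%, beside 13.6% of all regions) and 48 higher (14.1%, beside 16.3%). Their summed H3K27ac was 4124, 4346 and 4908 CPM in B6 and 3199, 4397 and 4532 in D2-13B6, so library 1 alone lay below the B6 range. H3K9me3 was lower at 164 of the 322 tested for it (50.9%, beside 12.4% of all regions) and higher at 8.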
